A study of Mus musculus with 2 samples.

Results

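The transcription factors that set the identity of lymphocytes were followed through colon lamina propria cells of the mouse, the connective tissue layer beneath the gut epithelium. They were the 9 genes Tbx21, Eomes, Gata3, Foxp3, Zbtb7b, Tcf7, Lef1, Bcl11b and Id2, chosen by symbol from the 32285 genes of the count matrices, and each symbol was found in both. Their UMIs (unique molecular identifiers, so that 1 RNA molecule gives 1 count) were summed over the cells of 5 gates defined by other genes. The NK gate held cells with Ncr1 and no Cd3e, the CD8 T gate cells with Cd8a, Cd8b1 and Cd3e, and the CD4 T gate cells with Cd4 and Cd3e. The other T gate held cells with Cd3e but neither Cd4 nor Cd8a, and the ILC gate, named for innate lymphoid cells, held cells with Il7r and Rora and no Cd3e. A gene was present with 1 UMI.

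The study compared Runx3 fl/fl mice with Runx3 fl/fl-Lyz2-Cre littermates, in which Cre under the Lyz2 promoter removes Runx3 in myeloid cells and not by design in lymphocytes. The study gives the mice as male and untreated, and their colons were pooled. There were 2 libraries, 1 per group, titled Runx3_fl and Runx3, from mice aged 8 weeks. The titles do not state whether Cre was present, so the libraries are named by their titles throughout. The labels call the cells CD11b+, the product of Itgam. Itgam was at 141 CPM (counts per 1000000 UMIs of the gate) in the NK gate of the Runx3_fl-labelled library and at 43.5 to 91.0 CPM in the 4 other gates, and at 148 CPM and 47.5 to 122 CPM in the Runx3-labelled library.

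Tbx21 encodes T-bet and Eomes encodes eomesodermin, the paired T-box factors of NK cells and of cytotoxic and type 1 helper T cells. Gata3 serves T cell development, type 2 helper T cells and group 2 innate lymphoid cells. Foxp3 defines regulatory T cells, and Zbtb7b, which encodes ThPOK, holds T cells in the CD4 lineage, where Runx3 is known as its opponent in the CD8 lineage. Tcf7 and Lef1 encode TCF1 and LEF1, related HMG-box factors that mark naive and memory-like T cells and decline as T cells become effectors. Bcl11b is needed for commitment to the T lineage, and Id2 binds E proteins and blocks them from DNA, which NK cells and innate lymphoid cells require.

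The largest ratios between the libraries were those of Tcf7 and Foxp3 in T cells. Tcf7 was 14.0 times higher in the CD8 T gate of the Runx3-labelled library than in that of the Runx3_fl-labelled library, 7.53 times higher in the CD4 T gate and 3.29 times higher in the other T gate, on the scale of CPM plus 1. Lef1 was 2.61, 2.16 and 2.21 times higher in the same gates, and Foxp3 was 12.7 times higher in the CD4 T gate. In NK cells none of the 8 members tested differed 2-fold, where 7.53% of all genes tested were higher and 4.18% lower by that much. Each library is alone in its group, so these differences have no replicate check, and library, pool of mice and genotype cannot be told apart.

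Of the cells deposited, 11885 of 12968 in the Runx3_fl-labelled library and 8167 of 8953 in the Runx3-labelled library were kept, having 200 to 6000 genes and at most 15% mitochondrial UMIs. They held 136381056 and 65556454 UMIs, with medians of 9573 and 5731 UMIs per cell. The NK gate held 1396 and 127 cells, the CD8 T gate 1213 and 76, the CD4 T gate 1543 and 208, the other T gate 617 and 347, and the ILC gate 216 and 171. In total 41.3% and 11.3% of kept cells entered a gate, and 72 and 8 cells entered 2 gates. The other T gate had Cd8b1, a CD8 T cell marker, at 53.2 and 14.2 CPM and Cd40lg, a CD4 T cell marker, at 30.7 and 11.2 CPM. CD8 or CD4 T cells whose Cd8a or Cd4 was not captured may be among its cells, which was not tested. Median depth within the gates ran from 8015 UMIs (NK) to 15698 UMIs (CD8 T) in the Runx3_fl-labelled library and from 8058 (other T) to 11317.5 (CD8 T) in the Runx3-labelled library. The 2 libraries shared 37 barcodes as deposited, of which 9 lay in a gate in the first and 2 in a gate in the second.

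Both libraries go against what the study or their titles would lead one to look for in respects that bear on every value below. The Runx3_fl-labelled library held 2756 kept cells with an Xist UMI, a transcript of female cells, and no UMI of the Y-linked Ddx3y, Eif2s3y, Kdm5d and Uty, beside 7059 cells with Y-linked UMIs only and 792 with both. The Runx3-labelled library held 0 cells of the first kind and 6057 of the second. Runx3 itself was at 152 CPM in macrophages and monocytes (cells with Csf1r and Lyz2) of the Runx3_fl-labelled library and at 194 CPM in those of the Runx3-labelled library. Its log2 ratio was 0.35, and 0.03 relative to the median gene of that class. The 4 neutrophil markers summed to 419 and 6031 CPM there. UMIs of a gene do not show which exons were removed, so these values cannot tell whether Runx3 was deleted. The study measured RUNX3 by qRT-PCR and Western blot in isolated colon resident macrophages and calls those of its Cre mice RUNX3-deficient. In the NK gate Runx3 was at 801 and 613 CPM, in the CD8 T gate at 231 and 362 CPM, and in the CD4 T gate at 252 and 181 CPM. The member ratios of the T gates are therefore given also without the cells that hold Xist. Co-detection, the split by Foxp3 and the genes that are not members were not computed in that way.

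Most cells of the ILC gate were rich in genes of dendritic cells or macrophages, so its label was not relied on. It contained 4071 and 2508 CPM of H2-Aa, a class II antigen presentation gene of dendritic cells and macrophages, and 946 and 619 CPM of Lyz2. In 130 of 216 and 91 of 171 of its cells those genes together took over 0.1% of the UMIs, and there Flt3, a dendritic cell gene, was at 83.9 and 51.5 CPM and Gata3 at 1.89 and 22.2 CPM. Il22, an innate lymphoid cell cytokine, was at 111 CPM in these cells of the Runx3_fl-labelled library and at 0 UMIs in those of the other. The same cut also took in 142 of 617 and 144 of 347 other T cells. The remaining 86 and 80 cells of the ILC gate had Il1rl1, the receptor for interleukin 33, at 81.6 and 200 CPM. Their Rora was at 2007 and 3216 CPM, but Rora is in every cell of the gate by its rule. The gate is called the Il7r and Rora gate from here on, and ILC in the plots.

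The members lie on 6 chromosomes in GRCm38 with the GENCODE M21 annotation. Tbx21 (ENSMUSG00000001444) is on chromosome 11 from 97098071 to 97115331, Eomes (ENSMUSG00000032446) on chromosome 9 from 118478212 to 118486132, and Gata3 (ENSMUSG00000015619) on chromosome 2 from 9857078 to 9890034. Foxp3 (ENSMUSG00000039521) is on chromosome X from 7573644 to 7595245, Zbtb7b (ENSMUSG00000028042) on chromosome 3 from 89377644 to 89394776, and Tcf7 (ENSMUSG00000000782) on chromosome 11 from 52252371 to 52283014. Lef1 (ENSMUSG00000027985) spans 113886 bases of chromosome 3 from 131110471, Bcl11b (ENSMUSG00000048251) lies on chromosome 12 from 107910403 to 108003602, and Id2 (ENSMUSG00000020644) on the same chromosome from 25093799 to 25097140. All are protein coding. Foxp3 overlaps Flicr and Gata3 overlaps 9230102O04Rik on the same strand, so UMIs of these pairs may be split between them and the levels of Foxp3 and Gata3 are uncertain to that extent.

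TCF1 and LEF1 bind DNA at letters such as CTTTGA, and RUNX proteins at TGTGGT. Windows of 30 bases around such letters are shown for members whose RefSeq promoters (GRCm38.p6, from 250 bases before to 50 bases after a start site) hold them, because the products of Tcf7 and Lef1, both over 2-fold higher in the T gates of 1 library, are known to bind such letters and Runx3 is the gene of the titles. Capitals mark the letters, on the gene's strand.
Lef1, chr3:131156102-131156131, plus strand: taaaatacatggTCAAAGgaaaataggtat
Lef1, chr3:131156162-131156191, plus strand: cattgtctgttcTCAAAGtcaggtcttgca
Bcl11b, chr12:108003486-108003515, minus strand: agaggccaagcaCTTTGAagaagtgtgaga
Zbtb7b, chr3:89387743-89387772, minus strand: ctggcgaggaacTGTGGTatgtgagtgggt
The letters begin 180 and 120 bases before an internal start site of Lef1, in an intron, 89 bases before the Bcl11b start site in an annotated exon, and 89 bases before an internal Zbtb7b start site in an intron. Read on both strands, CTTTGA or TCAAAG occurred in 16.0% of 32851 mouse promoters of that length and TGTGGT or ACCACA in 16.8%, so the matches are common and describe the letters only. The windows examined of Tbx21, Eomes, Gata3, Tcf7 and Id2 held neither set of letters, nor, on either strand, the GATA letters AGATAA (in 11.2% of promoters) or the T-box letters GGTGTGA (in 3.98%). Foxp3 held only the GATA letters, which begin 47 bases before an internal start site in an intron. Lef1 held the GATA letters too, beginning 17 bases after an internal start site in an intron. The searched letters do not overlap one another.

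Tcf7 differed between the libraries in all 3 T gates. In the Runx3_fl-labelled library it was at 75.1 CPM in the NK gate (95% Poisson interval 70.5 to 80.0), 48.4 CPM in the other T gate (43.3 to 53.9), 43.1 CPM in the Il7r and Rora gate (35.8 to 51.4), 27.4 CPM in the CD4 T gate (25.4 to 29.6) and 19.0 CPM in the CD8 T gate (17.2 to 21.0). In the Runx3-labelled library it was at 279 CPM in the CD8 T gate (247 to 314), 213 CPM in the CD4 T gate (196 to 231), 161 CPM in the other T gate (148.5 to 175), 91.6 CPM in the NK gate (76.9 to 108) and 57.4 CPM in the Il7r and Rora gate (48.0 to 68.0). The order of the gates thus ran in opposite ways: CD8 T cells were lowest in the first library and highest in the second, and all neighbours were apart except the other T and the Il7r and Rora gates of the Runx3_fl-labelled library. The log2 ratio of CPM plus 1, Runx3 over Runx3_fl, was 3.80 in the CD8 T gate (counting interval 3.65 to 4.10), 2.91 in the CD4 T gate (2.80 to 3.12), 1.72 in the other T gate (1.54 to 1.94), 0.28 in the NK gate (0.02 to 0.55) and 0.41 in the Il7r and Rora gate (0.05 to 0.78). Every interval has a level of 95% and holds counting error alone.

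**Figure D1:**
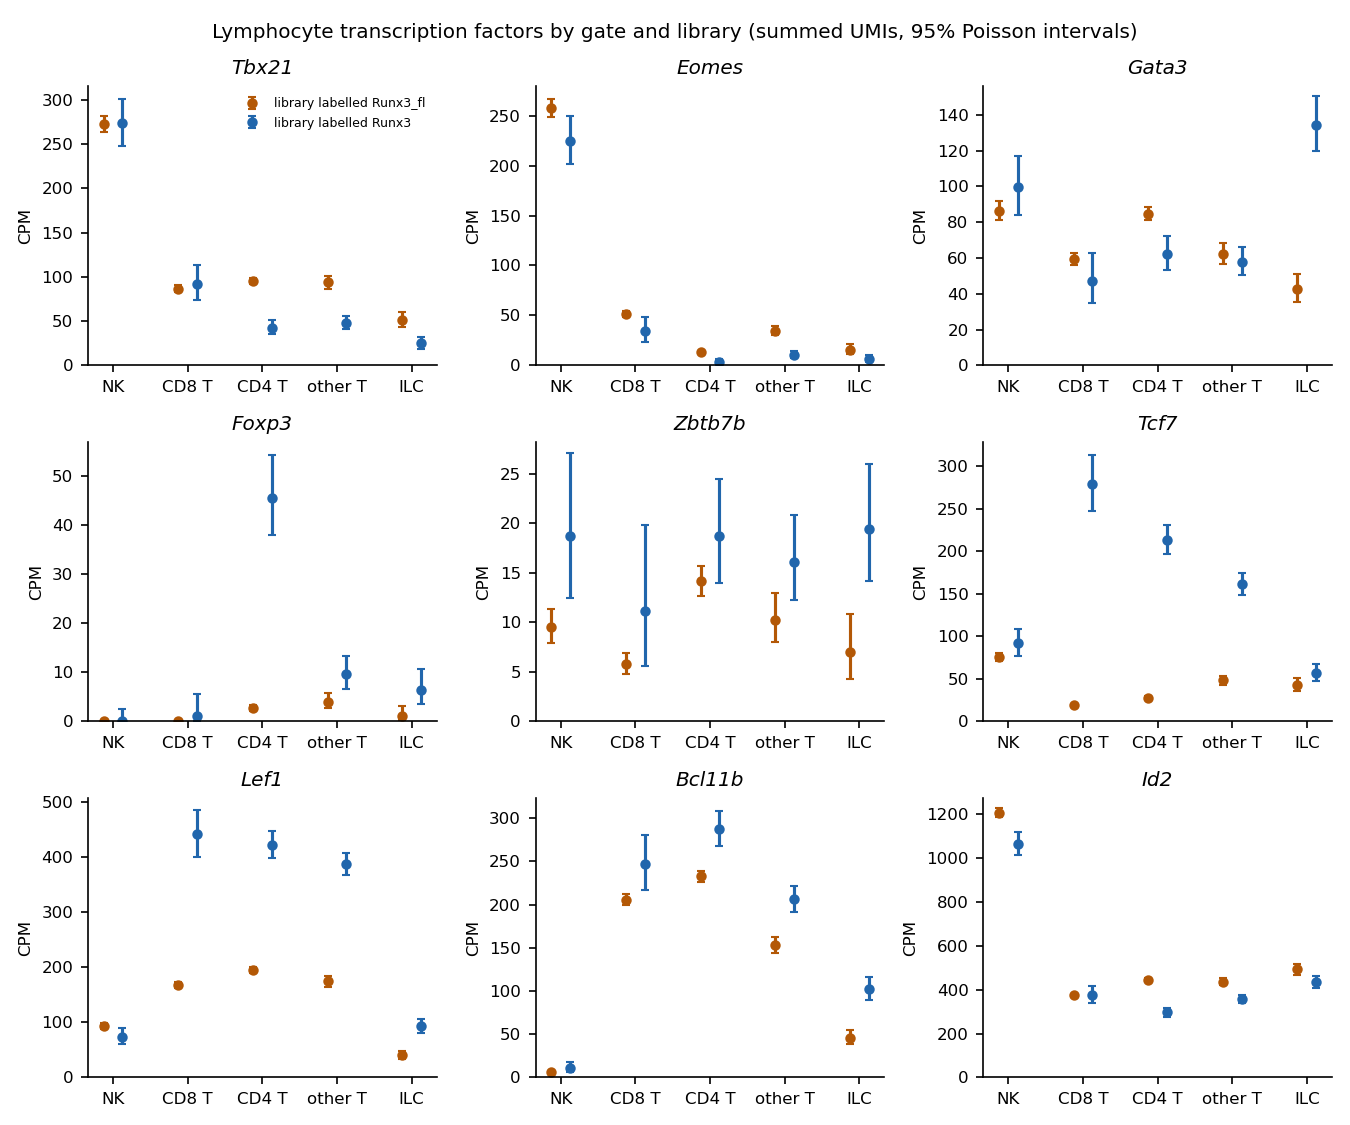
Levels of the 9 members in CPM (linear axis from 0) in each of the 5 gates, with orange points for the Runx3_fl-labelled library, blue points for the Runx3-labelled library and lines for exact 95% Poisson intervals. Tcf7 and Lef1 stand apart in the 3 T gates, where Tcf7 lies between 19.0 and 48.4 CPM in the first library and between 161 and 279 CPM in the second, whereas Tbx21 at 273 CPM in both and Eomes at 257 and 225 CPM peak in the NK gate.

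Lef1 followed Tcf7 in the T gates but by a smaller factor. It was at 195 CPM in the CD4 T gate (190 to 201), 174 CPM in the other T gate (165 to 184), 168 CPM in the CD8 T gate (163 to 174), 93.7 CPM in the NK gate and 39.9 CPM in the Il7r and Rora gate of the Runx3_fl-labelled library. Its levels in the Runx3-labelled library were 441 CPM in the CD8 T gate (401 to 485), 422 CPM in the CD4 T gate (399 to 447), 387 CPM in the other T gate (367 to 408), 93.2 CPM in the Il7r and Rora gate and 74.2 CPM in the NK gate. The 3 T gates of that library could not be ordered, since the intervals of neighbours overlapped, and all of them lay above every gate of the other library. The log2 ratios were 1.39 (1.24 to 1.53) in CD8 T, 1.11 (1.02 to 1.21) in CD4 T, 1.15 (1.04 to 1.26) in other T and 1.20 (0.89 to 1.56) in the Il7r and Rora gate, against -0.33 (-0.63 to -0.05) in NK.

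The balance of the pair within one gate was read from the share of Tcf7 among the UMIs of both genes, which is free of the scaling to all UMIs. In the CD8 T gate Tcf7 made up 10.2% of them (Clopper-Pearson interval 9.23 to 11.1) in the Runx3_fl-labelled library and 38.7% (35.1 to 42.4) in the Runx3-labelled library. In the CD4 T gate the shares were 12.3% and 33.5%, in the other T gate 21.7% and 29.4%, and in the NK gate 44.5% and 55.2%. In the Il7r and Rora gate the order was the opposite, with 51.9% (45.3 to 58.4) and 38.1% (33.0 to 43.4). The fold of Tcf7 was thus larger than that of Lef1 in the T gates, while the difference in CPM was larger for Lef1.

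To compare shares of cells at 1 depth, cells were thinned to 2000 UMIs. Shallower cells were left out, at most 13 cells of a gate in the Runx3_fl-labelled library and 33 in the Runx3-labelled library, both in the other T gate. A Tcf7 UMI was then found in 3.71% (2.72 to 4.94) of CD8 T cells of the Runx3_fl-labelled library and in 36.8% (26.1 to 48.7) of those of the Runx3-labelled library, against 15.6% and 77.6% before thinning. The shares were 5.25% and 31.4% in CD4 T cells and 8.28% and 28.7% in other T cells. As background, B cells (Cd79a and Ms4a1) had 2.22% and 0.665%, and macrophages and monocytes 0.449% and 1.30%, at median depths of 6900 and 6870.5 UMIs and of 12888 and 10730 UMIs. The T cell shares of the Runx3-labelled library lay far above these, while the 3.71% of CD8 T cells in the Runx3_fl-labelled library lay above the macrophage interval and within the B cell interval (0.461 to 6.36). For Lef1 the thinned shares were 21.9% and 40.8% in CD8 T cells and 24.1% and 39.1% in CD4 T cells, against 0% and 1.61% in B cells, where the upper bound at 0 of 135 cells was 2.70%.

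**Figure D2:**
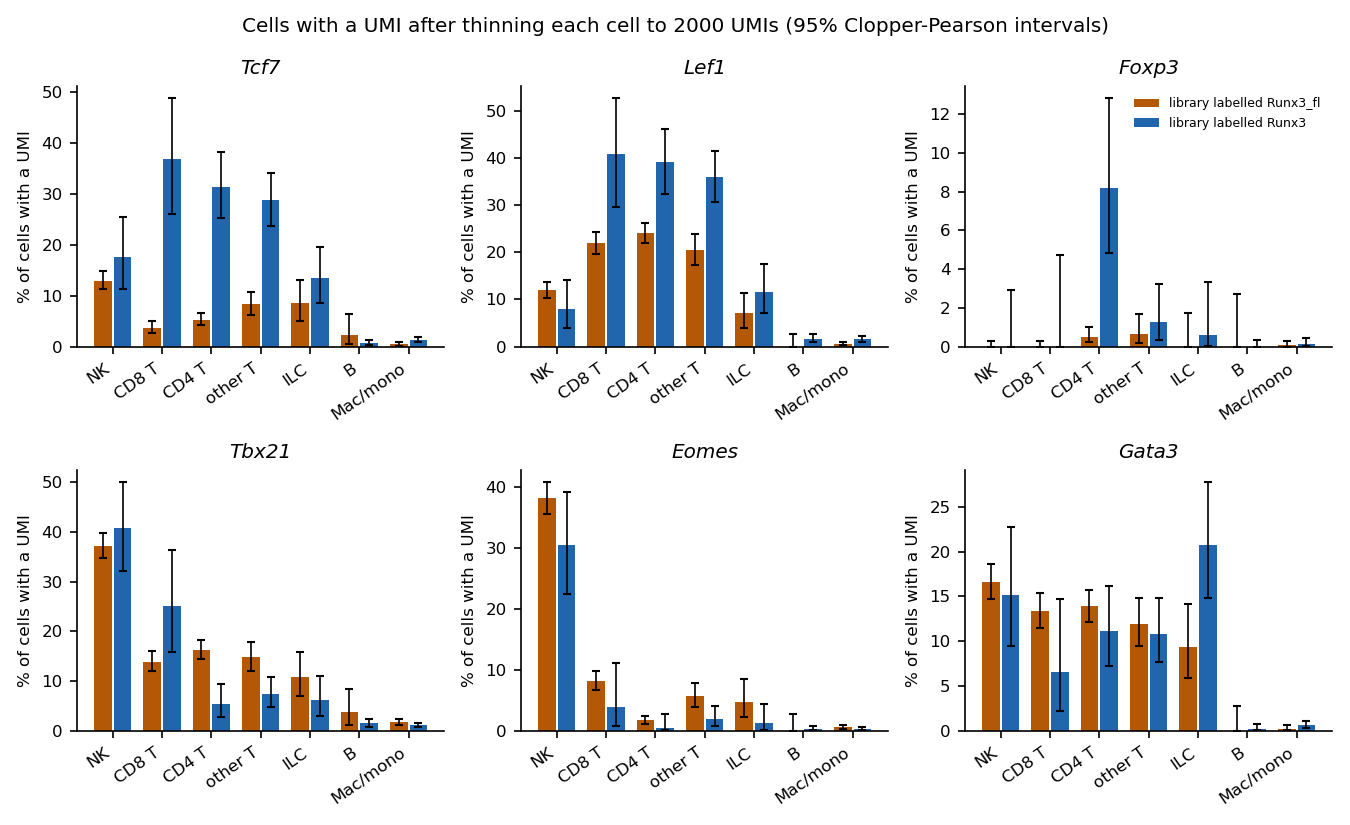
Percent of cells with at least 1 UMI of 6 members after each cell was thinned to 2000 UMIs, for the 5 gates and for B cells and macrophages with monocytes as background, with orange bars for the Runx3_fl-labelled library, blue bars for the Runx3-labelled library and lines for exact 95% Clopper-Pearson intervals (bars start at 0). In the T gates a Tcf7 UMI was in 3.71% to 8.28% of cells of the first library and in 28.7% to 36.8% of the second.

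Within single cells of the Runx3-labelled library the pair went together in the other T gate, where 62.2% (51.4 to 72.2) of thinned cells with a Tcf7 UMI also had a Lef1 UMI, against 25.4% (19.9 to 31.7) of those without. In the CD8 T and CD4 T gates of that library the shares were 57.1% against 31.3% and 50.8% against 33.8%, with overlapping intervals. They were, in the Runx3_fl-labelled library, 24.4% against 21.9%, 29.6% against 23.8%, and 30.0% against 19.7% in CD8 T, CD4 T and other T cells, and the intervals overlapped in each. The cells of a gate share 1 library and are not replicates.

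The Tcf7 difference was as large within the cells that carry Y-linked UMIs. Among these, CD8 T cells were at 18.7 CPM (16.3 to 21.3) in the Runx3_fl-labelled library and at 281 CPM (248 to 316) in the Runx3-labelled library, and CD4 T cells at 29.6 CPM (26.7 to 32.8) and 211 CPM (194 to 228). The cells with Xist and no Y-linked UMI of the Runx3_fl-labelled library were at 15.6 CPM (12.3 to 19.4) in the CD8 T gate and at 20.8 CPM (17.6 to 24.4) in the CD4 T gate. With every cell that holds an Xist UMI left out, a choice made after the data were seen, the Tcf7 ratios were 3.84 in CD8 T, 2.77 in CD4 T and 1.77 in other T. The Lef1 ratio under that choice was 1.30 in CD8 T but 0.99 in CD4 T and 0.98 in other T, just short of 2-fold. Lef1 also fell short of it at 0.80 in CD8 T and 0.88 in other T cells when 2 UMIs of each gate gene were asked for, and at 0.94 in CD4 T cells with all deposited cells.

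**Figure D3:**
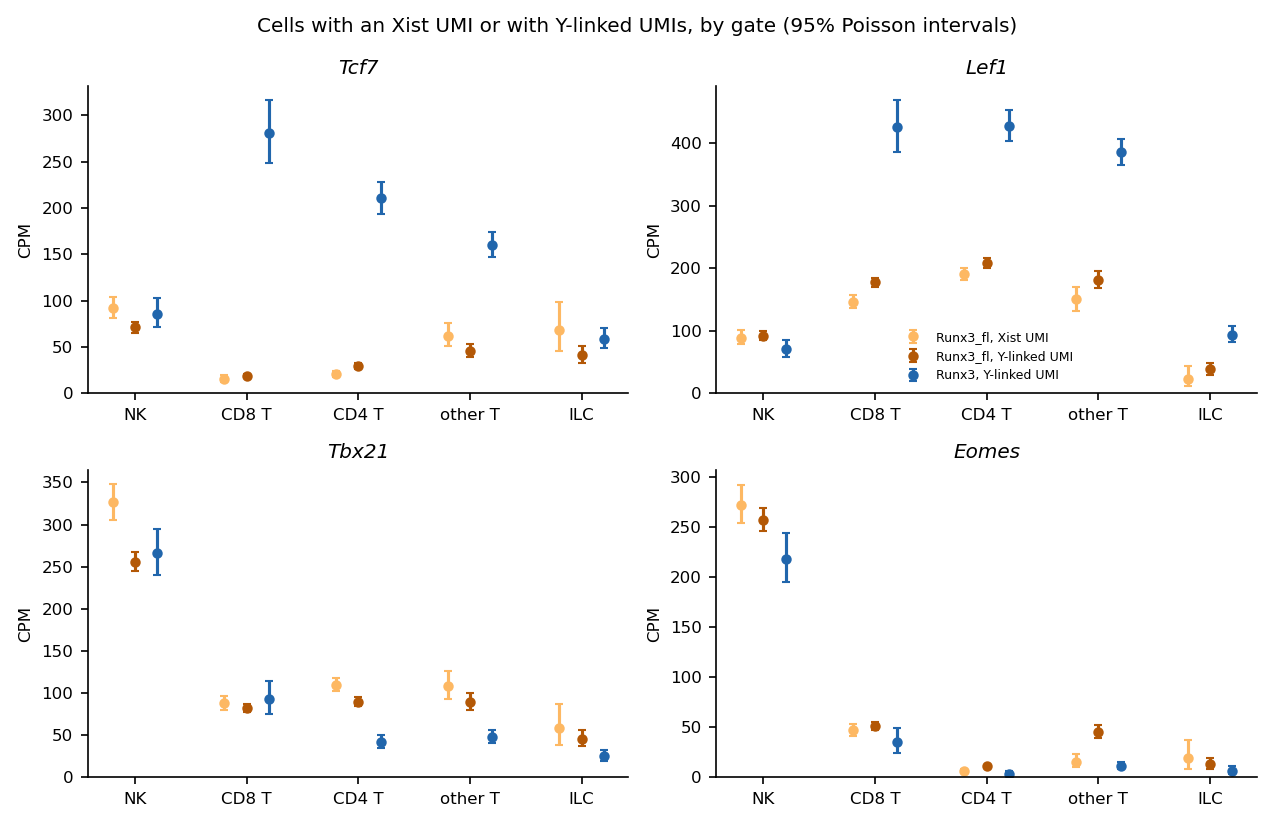
Levels in CPM (linear axis from 0) of Tcf7, Lef1, Tbx21 and Eomes in each gate for cells with an Xist UMI and no Y-linked UMI (light orange) and cells with Y-linked UMIs and no Xist UMI (dark orange) of the Runx3_fl-labelled library, and for cells with Y-linked UMIs and no Xist UMI of the Runx3-labelled library (blue), with exact 95% Poisson intervals. Both kinds of CD8 T cells of the first library have Tcf7 at 15.6 and 18.7 CPM, against 281 CPM in the second.

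Genes of B cells and of macrophages and monocytes were also higher in the T gates of the Runx3-labelled library. The 4 plasma cell markers were higher in its CD8 T (311 and 838 CPM) and other T gates (781 and 1498 CPM) but lower in its CD4 T gate (472 and 117 CPM). The 5 B cell markers, all detected in every T gate, summed to 10.0, 10.9 and 28.1 CPM in the CD8 T, CD4 T and other T gates of the Runx3_fl-labelled library and to 99.9, 114 and 150 CPM in those of the Runx3-labelled library. The 7 macrophage and monocyte markers, likewise all detected, summed to 290, 331 and 907 CPM and to 892, 1075 and 1140 CPM. Tcf7 was at 6.26 and 3.78 CPM in B cells and at 1.52 and 6.05 CPM in macrophages and monocytes, and Lef1 at 17.4 and 13.9 CPM and at 2.54 and 9.99 CPM, all below the T gates. With the cells rich in H2-Aa and Lyz2 left out, also a choice made after the data were seen, the Tcf7 ratios were 4.01, 3.49 and 2.06 and the Lef1 ratios 1.47, 1.57 and 1.47 in CD8 T, CD4 T and other T cells, none of them smaller than with those cells. Neutrophil markers, 4 in the list, summed to 254 and 2825 CPM in the other T gate and to 45.9 and 4001 CPM in the NK gate, and their part in the differences of those gates was not tested.

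Foxp3 was a gene of the CD4 T gate in the Runx3-labelled library and scarce in the other library. The Runx3_fl-labelled library had 66 Foxp3 UMIs in the CD4 T gate, or 2.66 CPM (2.06 to 3.39), 28 UMIs in the other T gate, or 4.06 CPM (2.70 to 5.86), 3 UMIs in the Il7r and Rora gate and 0 in the NK and CD8 T gates. The Runx3-labelled library had 127 UMIs in the CD4 T gate, or 45.6 CPM (38.0 to 54.2), 35 UMIs in the other T gate, or 9.57 CPM (6.66 to 13.3), 15 UMIs in the Il7r and Rora gate, 1 in the CD8 T gate and 0 in the NK gate. The log2 ratio was 3.67 in the CD4 T gate (3.66 to 4.55 without the added CPM) and 1.06 in the other T gate (0.48 to 2.01). The ratio of 1.87 in the Il7r and Rora gate rested on 3 and 15 UMIs, and its counting interval was 0.80 to 5.05. After thinning, a Foxp3 UMI was in 0.519% (0.224 to 1.02) and 8.21% (4.86 to 12.8) of CD4 T cells, against 1.56% and 19.2% unthinned, and in 0.0561% (up to 0.312) and 0.156% of macrophages and monocytes, so the share in the Runx3_fl-labelled library overlapped this background in its interval. The ratio in the other T gate was 0.48 with a pseudocount of 10 CPM and 0.97 with the median gene set to 0. Without the cells that hold Xist the Foxp3 ratios were 3.67 in CD4 T and 1.74 in other T cells.

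The CD4 T cells were divided by the presence of a Foxp3 UMI to see which other factors went with it, a split in which a cell without one may still express the gene, giving 24 cells with and 1519 without in the Runx3_fl-labelled library and 40 with and 168 without in the Runx3-labelled library. Ikzf2, which encodes Helios of regulatory T cells, was at 1920 CPM in the cells with Foxp3 and 315 CPM in those without in the first library, and at 1456 and 200 CPM in the second. Ctla4, an inhibitory receptor, was at 1901 and 1189 CPM in the first and at 1428 and 294 CPM in the second, and Il2ra, the interleukin 2 receptor alpha chain, at 318 and 321 CPM and at 193 and 44.8 CPM. Tnfrsf18 was at 216 and 105 CPM in the first and at 212 and 71.4 CPM in the second, and Tnfrsf4 at 444 and 260 CPM and at 426 and 94.5 CPM. Cells with a Foxp3 UMI therefore stood out by Ikzf2, Ctla4, Tnfrsf18 and Tnfrsf4 in both libraries and by Il2ra in the Runx3-labelled library only.

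Tcf7 and Lef1 were the factors of the cells without Foxp3 in the Runx3-labelled library. Tcf7 was at 43.5 CPM (28.1 to 64.2) in the cells with Foxp3 and 257 CPM (237 to 279) in those without, and Lef1 at 103 CPM (78.1 to 132) and 506 CPM (476 to 536). Lef1 in the Runx3_fl-labelled library had levels of 95.6 CPM (66.2 to 134) and 196 CPM (191 to 202), and Tcf7 at 25.3 CPM (11.6 to 48.0) and 27.5 CPM (25.4 to 29.6), where the intervals overlapped. Id2 ran the other way, at 443 and 259 CPM in the Runx3-labelled library and at 700 and 442 CPM in the Runx3_fl-labelled library. Among cells with a Foxp3 UMI the Tcf7 intervals of the 2 libraries overlapped, and among cells without they did not. Eomes was at 59.0 CPM (36.5 to 90.3) in the cells with Foxp3 and 12.3 CPM in those without in the Runx3_fl-labelled library, where the former value comes from 21 UMIs, and at 0 UMIs and 4.52 CPM in the Runx3-labelled library.

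**Figure D4:**
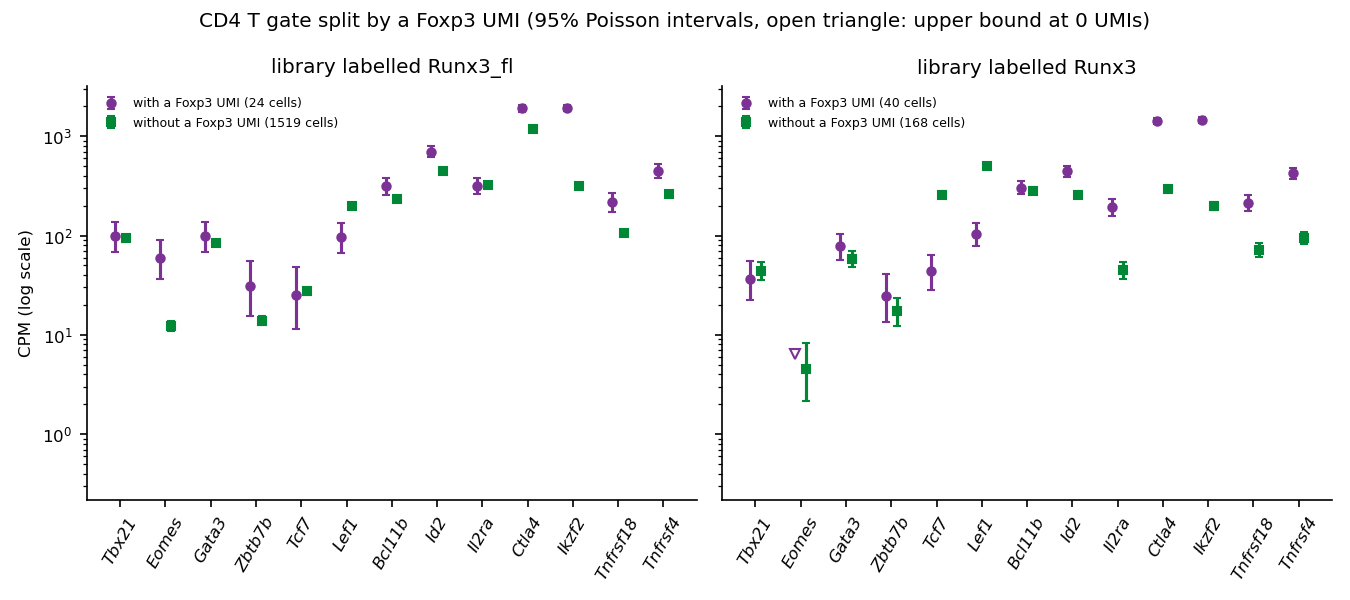
Levels in CPM (log axis) of the other 8 members and of 5 regulatory T cell genes in CD4 T gate cells with (purple circles) and without (green squares) a Foxp3 UMI, for the Runx3_fl-labelled library on the left and the Runx3-labelled library on the right, with exact 95% Poisson intervals and an open triangle for the upper bound of Eomes at 0 UMIs. On the right Tcf7 lies at 43.5 and 257 CPM and Lef1 at 103 and 506 CPM, while Ikzf2 lies at 1456 and 200 CPM.

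The T-box factors peaked in the NK gate of both libraries. Tbx21 was at 273 CPM there in each (264 to 282 and 248 to 301), with a log2 ratio of 0.00 (-0.15 to 0.15). In the Runx3_fl-labelled library the T gates followed at 95.3 CPM (CD4 T), 93.9 CPM (other T) and 86.7 CPM (CD8 T), and these neighbours overlapped in their intervals, with 51.5 CPM in the Il7r and Rora gate. In the Runx3-labelled library CD8 T cells were at 91.9 CPM (74.0 to 113), and other T cells at 47.8 CPM and CD4 T cells at 42.3 CPM came below, apart from CD8 T but not from each other, with 25.0 CPM in the Il7r and Rora gate. CD8 T cells thus had like levels in both libraries, and CD4 T cells differed 2.22-fold.

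The log2 ratio of Tbx21 was -1.15 in the CD4 T gate (-1.45 to -0.90), -0.96 in the other T gate (-1.22 to -0.73), -1.01 in the Il7r and Rora gate (-1.50 to -0.59) and 0.08 in the CD8 T gate (-0.24 to 0.39). After thinning, 16.2% and 5.31% of CD4 T cells had a Tbx21 UMI, against 57.6% and 21.6% unthinned and against 1.63% and 1.04% of thinned macrophages and monocytes. Dendritic cells (Flt3 and H2-Aa) had Tbx21 at 32.7 and 29.0 CPM, a level near that of the Il7r and Rora gate of the Runx3-labelled library. The ratio in CD4 T cells fell short of 2-fold at -0.69 with the cells that hold B cell or macrophage genes left out, -0.81 with those rich in H2-Aa and Lyz2 left out, -0.93 as the mean of each cell's CPM and -0.53 with cells thinned before gating.

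Eomes separated the gates more sharply than Tbx21. Its level in the Runx3_fl-labelled library was 257 CPM in the NK gate (249 to 266), 51.2 CPM in CD8 T (48.2 to 54.3), 34.5 CPM in other T (30.2 to 39.1), 15.8 CPM in the Il7r and Rora gate (11.5 to 21.1) and 13.0 CPM in CD4 T (11.6 to 14.4). The same order held in the Runx3-labelled library, with 225 CPM (201 to 250), 34.3 CPM (23.8 to 48.0), 10.7 CPM (7.58 to 14.6), 6.47 CPM (3.62 to 10.7) and 3.59 CPM (1.72 to 6.60). In the second library the last 3 gates overlapped as neighbours. The log2 ratio was -1.60 in CD4 T (-2.93 to -0.95, on 321 and 10 UMIs), -1.61 in other T (-2.22 to -1.20), -1.17 in the Il7r and Rora gate (-2.23 to -0.41), -0.56 in CD8 T (-1.11 to -0.09) and -0.20 in NK (-0.36 to -0.03). Eomes was thus lower in the Runx3-labelled library in all 5 gates, past 2-fold in 3 of them, except that it was higher in CD8 T (0.81) with cells thinned before gating, which left 7 cells there. Its CD4 T ratio was -0.95 without the cells that hold B cell or macrophage genes. With cells in 2 gates left out, the ratio in the Il7r and Rora gate was -0.36 for Eomes and -0.42 for Tbx21. Without the cells that hold Xist the CD4 T ratios were -1.08 for Tbx21 and -1.36 for Eomes, the other T ratios -0.89 and -1.97, and the CD8 T ratios 0.14 and -0.58.

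NK cells held Tbx21 and Eomes side by side. Eomes made up 48.6% and 45.1% of the UMIs of the pair. Of thinned NK cells with a Tbx21 UMI, 38.0% had an Eomes UMI in the Runx3_fl-labelled library, against 38.2% of those without, and the shares were 37.3% (24.1 to 51.9) and 25.7% (16.2 to 37.2) in the Runx3-labelled library. The intervals overlapped in both. In CD8 T cells Eomes made up 37.1% and 27.2% of the pair and in CD4 T cells 12.0% and 7.81%.

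Gata3 was present in every gate, and the library decided which gate led. In the Runx3_fl-labelled library the NK gate at 86.4 CPM (81.4 to 91.6) and the CD4 T gate at 84.6 CPM (81.0 to 88.3) overlapped at the top, followed by other T at 62.1 CPM, CD8 T at 59.5 CPM and the Il7r and Rora gate at 42.7 CPM (35.5 to 51.0). In the Runx3-labelled library the Il7r and Rora gate led at 135 CPM (120 to 150), followed by NK at 99.6 CPM (84.3 to 117), CD4 T at 62.4 CPM, other T at 57.9 CPM and CD8 T at 47.5 CPM, the last 3 overlapping as neighbours. The log2 ratio was 1.63 in the Il7r and Rora gate (1.35 to 1.97), -0.43 in CD4 T (-0.67 to -0.21), -0.32 in CD8 T (-0.78 to 0.09), -0.10 in other T and 0.20 in NK. Relative to the median gene of the Il7r and Rora gate, whose log2 ratio was 0.17, the Gata3 ratio there was 1.46, and it was 1.77 before that step without the cells that hold Xist. Without those cells the Gata3 ratios were -0.41 in CD4 T, -0.36 in CD8 T and -0.30 in other T. Macrophages and monocytes had 1.18 and 2.79 CPM.

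In the cells of the Il7r and Rora gate that were not rich in H2-Aa and Lyz2, Gata3 was at 161 CPM (133 to 192) in 86 cells of the Runx3_fl-labelled library and at 424 CPM (375 to 477) in 80 cells of the Runx3-labelled library. The gate's Gata3 difference was therefore also present without its cells rich in H2-Aa and Lyz2. In the same cells Tbx21 was at 166 and 41.6 CPM, Eomes at 58.5 and 3.08 CPM, Tcf7 at 102 and 123 CPM, Lef1 at 144 and 228 CPM, Bcl11b at 173 and 263 CPM and Id2 at 754 and 596 CPM. Il22, a cytokine of group 3 innate lymphoid cells, had levels of 367 CPM (325 to 414) and 29.3 CPM (17.6 to 45.7) there, while Il1rl1 ran with Gata3 as given above. These cells still held 107 and 81.6 CPM of Trac, the T cell receptor alpha constant gene, so T cells whose Cd3e was not captured may be among them, which was not tested.

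Zbtb7b set the CD4 T gate apart from all gates but other T in the Runx3_fl-labelled library, and from none in the Runx3-labelled library. It was at 14.1 CPM (12.7 to 15.7) in CD4 T, 10.3 CPM in other T, 9.50 CPM in NK, 7.00 CPM in the Il7r and Rora gate and 5.79 CPM (4.81 to 6.91) in CD8 T cells of the Runx3_fl-labelled library. Each neighbour overlapped there, but CD4 T was apart from NK, the Il7r and Rora gate and CD8 T. The Runx3-labelled library had it at 19.4 CPM in the Il7r and Rora gate, 18.7 CPM in NK, 18.7 CPM in CD4 T, 16.1 CPM in other T and 11.1 CPM (5.54 to 19.9) in CD8 T cells, and no neighbours were apart. Myeloid cells had it too, with 12.6 and 25.9 CPM in macrophages and monocytes, 9.34 and 26.2 CPM in dendritic cells and 18.7 and 35.4 CPM in neutrophils. The log2 ratio ran from 0.38 (-0.05 to 0.83) in CD4 T to 1.35 (0.68 to 2.31) in the Il7r and Rora gate. By level alone, neutrophils were above every gate in both libraries, macrophages and monocytes above all gates but CD4 T in the Runx3_fl-labelled library and above every gate in the Runx3-labelled library, and dendritic cells below CD4 T in the former. The Zbtb7b ratio in the Il7r and Rora gate was 0.70 without the cells rich in H2-Aa and Lyz2. The ratios of 0.91 in NK and 0.83 in CD8 T were 0.006 and 0.12 with the cells that hold B cell or macrophage genes left out. Under that choice the ratio was 0.15 in CD4 T, 0.33 in other T and 1.22 in the Il7r and Rora gate. In CD8 T it was -0.02 with 2 UMIs of each gate gene. Without the cells that hold Xist the ratios were 0.96 in CD8 T, 0.52 in CD4 T and 0.50 in other T.

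Bcl11b marked the T gates and was all but absent from NK cells. The Runx3_fl-labelled library had it at 233 CPM in CD4 T (227 to 239), 206 CPM in CD8 T (200 to 212), 153 CPM in other T (144 to 162), 45.9 CPM in the Il7r and Rora gate and 6.10 CPM in NK cells (4.83 to 7.60), and all neighbours were apart. The order in the Runx3-labelled library was the same at 287, 247, 206, 103 and 10.7 CPM, with overlap between neighbouring T gates. The log2 ratios in the T gates were 0.30 (0.20 to 0.41) in CD4 T, 0.26 (0.07 to 0.45) in CD8 T and 0.43 (0.30 to 0.57) in other T, and 1.15 (0.85 to 1.48) in the Il7r and Rora gate. Without the cells rich in H2-Aa and Lyz2 the last of these was 0.61 and that of Lef1 0.66. With all gated cells Bcl11b was thus within 2-fold between the libraries in T cells in which Tcf7 differed several-fold. With the cells that hold B cell or macrophage genes left out, its ratios were larger, at 0.63 in CD4 T, 0.58 in CD8 T and 0.81 in other T. Thinning before gating, which left 7 CD8 T cells in the Runx3-labelled library, gave 1.59 in CD8 T. Of thinned CD4 T cells with a Bcl11b UMI in the Runx3-labelled library, 44.2% (32.8 to 55.9) had a Tcf7 UMI, against 23.8% (16.8 to 32.1) of those without, and in the Runx3_fl-labelled library the shares were 5.14% and 5.32%. In the CD8 T and other T gates of the Runx3-labelled library they were 43.3% against 32.6% and 38.3% against 23.7%, with overlapping intervals. Without the cells that hold Xist the Bcl11b ratios were 0.25 in CD4 T, 0.29 in CD8 T and 0.38 in other T.

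Id2 was the reverse of Bcl11b between the NK gate and the T gates, with its peak in the NK gate. It was at 1207 CPM there in the Runx3_fl-labelled library (1188 to 1226) and at 1063 CPM in the Runx3-labelled library (1012 to 1117). The Il7r and Rora gate followed at 492 and 433 CPM, and the T gates ran from 373 CPM (CD8 T) to 446 CPM (CD4 T) in the first library and from 297 CPM (CD4 T) to 378 CPM (CD8 T) in the second. Among the T gates of the first library, CD4 T thus had the highest level of Id2 and also of Bcl11b. The CD4 T and other T gates overlapped in the first library, and the Il7r and Rora, CD8 T and other T gates overlapped as neighbours in the second. The log2 ratio was -0.58 (-0.69 to -0.48) in CD4 T, -0.29 in other T, -0.19 in the Il7r and Rora gate, -0.18 in NK and 0.02 (-0.14 to 0.17) in CD8 T. Without the cells rich in H2-Aa and Lyz2 it was -0.28 in CD4 T, 0.45 in CD8 T and -0.34 in the Il7r and Rora gate, and without those that hold Xist -0.51 in CD4 T, 0.11 in CD8 T and -0.41 in other T. Id2 is not particular to lymphocytes, and macrophages and monocytes had 366 and 239 CPM and dendritic cells 405 and 417 CPM. Bcl11b made up 0.503% and 0.996% of the UMIs of the Bcl11b and Id2 pair in NK cells, and 34.3% and 49.2% in CD4 T cells.

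Past a 2-fold difference in either direction, among genes with at least 10 UMIs in a gate over both libraries, the members were counted against all genes. In the NK gate 0 of 8 members were higher and 0 lower in the Runx3-labelled library, where 7.53% of 12891 genes were higher and 4.18% lower. In the CD8 T gate Tcf7 and Lef1 were higher and none of the 8 lower, against 15.5% and 12.1% of 13752 genes. In the CD4 T gate Foxp3, Tcf7 and Lef1 were higher and Tbx21 and Eomes lower among 9, against 15.9% and 7.79% of 14435 genes. In the other T gate Foxp3, Tcf7 and Lef1 were higher and Eomes lower among 9, against 11.2% and 5.54% of 13200 genes. In the Il7r and Rora gate Gata3, Foxp3, Zbtb7b, Lef1 and Bcl11b were higher and Tbx21 and Eomes lower among 9, against 13.4% and 4.03% of 11798 genes. Higher genes made up 76.9% of the calls in that gate and 64.6% once the median gene was set to 0, the only gate in which this moved the split by over 10 percentage points.

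The median log2 ratio of the tested members was 0.10 in NK, 0.17 in CD8 T, 0.30 in CD4 T, 0.43 in other T and 1.15 in the Il7r and Rora gate, where that of all tested genes was 0.07, 0.05, 0.08, 0.09 and 0.17. With Foxp3 not tested in the NK and CD8 T gates, where it had 0 UMIs and 1 UMI, 8 members entered those medians. The T gates share a direction for Tcf7 and Lef1, and the CD4 T and other T gates for Foxp3, Tbx21 and Eomes, but all 5 gates come from the same 2 libraries.

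**Figure D5:**
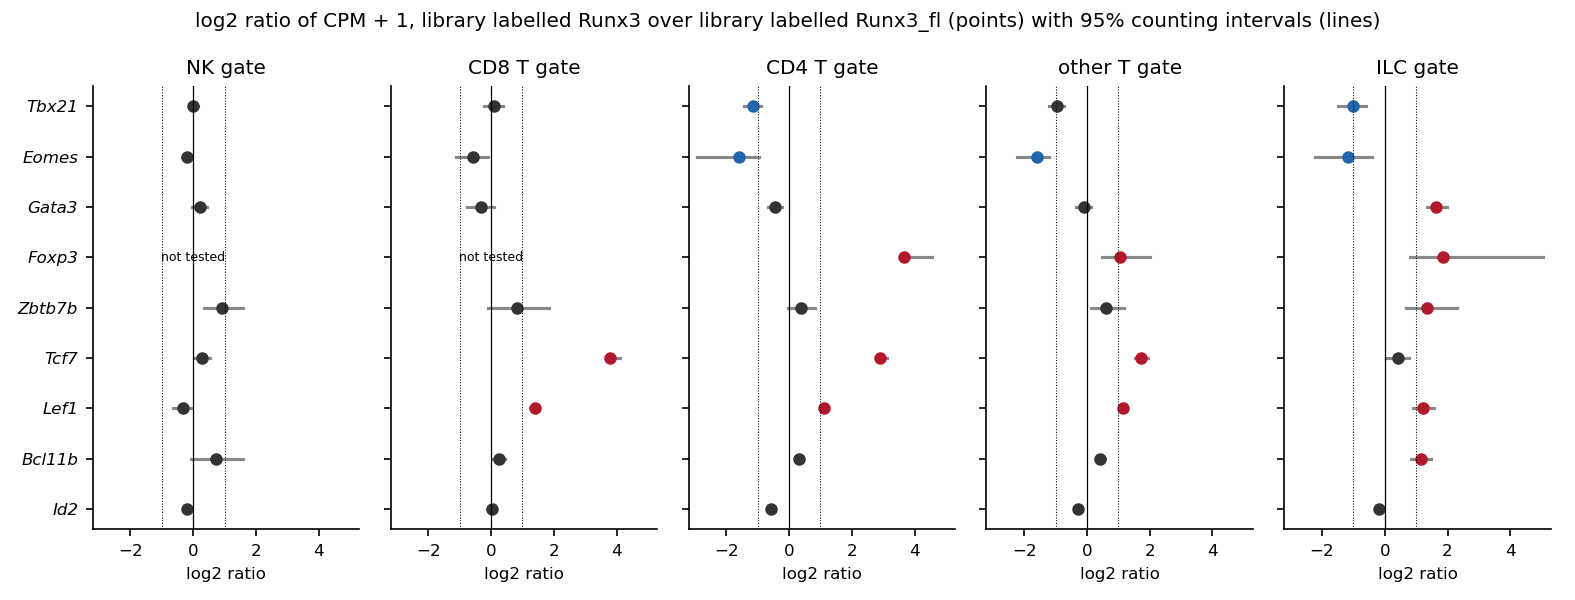
The log2 ratio of CPM plus 1, Runx3-labelled library over Runx3_fl-labelled library, of the 9 members in each of the 5 gates, with lines for 95% counting intervals, dotted lines at a 2-fold difference, red points past it upward, blue points past it downward and black points within it (Foxp3 in the NK and CD8 T gates had under 10 UMIs). All NK points lie between -0.33 and 0.91, while Tcf7 reaches 3.80 in CD8 T and 2.91 in CD4 T cells.

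Other transcription factors of lymphocytes were read in the same way from a list of 30. Past 2-fold, 2 of the 28 tested were higher in the Runx3-labelled library and 1 lower in NK cells, against 7.53% and 4.18% of all genes. In CD8 T cells 8 of 29 were higher and 3 lower, against 15.5% and 12.1%, in CD4 T cells 7 and 3, against 15.9% and 7.79%, and in other T cells 5 and 3, against 11.2% and 5.54%. Among the T cell factors at 20 CPM or more in a library, Id3, an inhibitor of E proteins, had the largest positive ratios in CD8 T and CD4 T cells, with 6.59 and 68.7 CPM (log2 ratio 3.20, 2.94 to 3.81) and with 8.68 and 66.8 CPM (2.81, 2.65 to 3.23). Klf2, a factor of naive and circulating T cells, came next, at 70.2 and 299 CPM in CD8 T and 59.4 and 256 CPM in CD4 T cells. Zbtb16, which encodes PLZF of innate-like T cells, led in other T cells at 7.68 and 68.1 CPM (2.99, 2.72 to 3.60). The 6 gamma delta T cell markers, all detected, summed to 30.9 and 169 CPM in that gate, with Trdc at 15.5 and 82.0 CPM, and their part in the Zbtb16 difference was not tested. Klf2 followed there at 76.8 and 312 CPM. Batf, a factor of effector T cells, and Myb, a factor of progenitors, had the largest negative ratios in all 3 T gates. Batf was at 94.8 and 40.4 CPM in CD8 T, 142 and 54.6 CPM in CD4 T and 78.7 and 35.8 CPM in other T cells, and Myb at 264 and 80.8 CPM, 152 and 58.9 CPM, and 154 and 52.7 CPM. NK cells differed less, with Irf4 at 6.56 and 22.1 CPM (1.61, 1.12 to 2.34), Maf at 49.2 and 82.2 CPM, Myb at 392 and 252 CPM and Zbtb16 at 26.7 and 17.4 CPM. In the Il7r and Rora gate 5 of 29 were higher and 2 lower, against 13.4% and 4.03% of all genes, led by Tox at 127 and 385 CPM and Klf2 at 59.5 and 166 CPM upward and by Myb at 50.8 and 13.4 CPM and Stat4 at 516 and 212 CPM downward.

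Genes known as targets or companions of the members were read from a list of 20. Ccr7, a homing receptor that goes with TCF1 in naive and central memory T cells, was at 31.4 and 231 CPM in CD8 T cells (log2 ratio 2.84, 2.66 to 3.10) and at 50.6 and 224 CPM in CD4 T cells (2.12, 2.00 to 2.28). It did not follow Tcf7 in the other T gate, at 149 and 189 CPM (0.34, 0.20 to 0.48), nor Lef1 in the Il7r and Rora gate, where it was at 794 and 350 CPM (-1.18, -1.30 to -1.07), and in NK cells it was at 43.2 and 40.1 CPM. S1pr1, a receptor for exit from tissue, did not share the difference of Ccr7 and was at 81.5 and 83.8 CPM in CD8 T cells (0.04, -0.29 to 0.36).

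The 6 genes listed for Tbx21 and Eomes were each over 2-fold lower in the Runx3-labelled library in CD8 T, CD4 T and other T cells. Of all genes tested, 12.1%, 7.79% and 5.54% were lower by that much in these gates. Gzmb, which encodes granzyme B, was at 2617 and 305 CPM in CD8 T cells (-3.10, -3.27 to -2.94), although Tbx21 differed little there. Ifng was at 252 and 96.9 CPM in CD8 T and at 453 and 54.6 CPM in CD4 T cells (-3.03, -3.29 to -2.82), and Prf1, which encodes perforin, at 78.9 and 4.04 CPM in CD8 T cells, the latter from 4 UMIs. In NK cells 0 of the 6 passed 2-fold, where 7.53% of all genes were higher and 4.18% lower by that much. Ifng was there at 490 and 492 CPM, Gzmb at 931 and 1182 CPM and Ccl5 at 7012 and 3873 CPM (-0.86, -0.90 to -0.82). NK cells of the libraries were thus within 2-fold in Tbx21, Eomes and all 6 of these genes. CD8 T cells were within 2-fold in Tbx21 and Eomes but not in the 6 genes. Among T cells, Tbx21 was past 2-fold in the CD4 T gate only, and Eomes in the CD4 T and other T gates.

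Among the genes listed for Foxp3, Ctla4 was at 1199 and 528 CPM in all CD4 T cells (-1.18) and Il2ra at 321 and 75.4 CPM (-2.07), against the direction of Foxp3, and Ikzf2 was at 338 and 459 CPM (0.44, 0.36 to 0.53). Both Ctla4 and Il2ra are also induced in activated T cells. For Gata3, Il1rl1 was at 21.0 and 58.7 CPM in the Il7r and Rora gate (1.44, 1.03 to 1.95) and Il4 at 2.80 and 41.0 CPM (3.47, 2.83 to 5.12), while Il5 at 8.05 and 8.20 CPM and Areg at 73.2 and 58.2 CPM were within 2-fold. Il4 is also a basophil and mast cell cytokine, and the 4 mast cell and basophil markers summed to 0.70 CPM, with Mcpt8, Fcer1a and Ms4a2 at 0, and to 9.49 CPM with all 4 detected. Their part in the Il4 difference was not tested. Cd40lg, listed for Zbtb7b, was at 77.3 and 23.3 CPM in CD4 T cells (-1.69).

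Genes most like each member were sought among 4901 genes that reached 50 CPM in a gate, by Pearson's r of log2 CPM plus 1 over 10 points, the 5 gates in 2 libraries, which share their libraries and in part their cells. Each gene named is the highest of 4901 over so few points, so a high r can come from that choice alone. For Bcl11b and Id2 the NK points stood far from the rest and weigh heavily on r. Bcl11b was most like Fam169b (r = 0.99), Id2 like Eya1 (0.98), Tcf7 like Srsf5 and the Y-linked Eif2s3y (both 0.98) and Eomes like Ube2d1 (0.97). Tbx21 was most like Il2rb (0.97), a subunit of the interleukin 15 receptor, Lef1 like Eif2ak3 (0.96), Foxp3 like Il10 (0.96), Gata3 like Ppp3ca (0.89) and Zbtb7b like Tmem65 (0.87). Eif2s3y follows which cells of the Runx3_fl-labelled library carry a Y chromosome as well as the gate. Among the members, Bcl11b and Id2 ran most strongly against each other (r = -0.96) and Tbx21 and Eomes together (r = 0.93).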

How the data were processed

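The authors deposited 1 filtered matrix per library, which holds UMI counts by gene and barcode and was made per the file headers with Cell Ranger 7.1.0 from 10x Genomics 3′ libraries. The submitters' processing notes name mm10 and Seurat 4. The deposited counts are whole numbers with no normalization, so CPM and ratios were computed here. Depth, gates and intervals are given with the results. Because there was 1 library per group, no test was run. Doublets were treated only by the study's upper limit on genes. A comparison class held cells with its genes and neither Cd3e nor Ncr1. Ratios used a pseudocount of 1 CPM and their intervals the exact binomial split of the UMIs, without that pseudocount. Of the gene IDs, 32158 of 32285 were in GENCODE M21. The step was checked on simulated sums with 200 changed genes. Alternatives changed the scaling, pseudocount, filters, gates, doublet-like cells, depth and averaging. Python 3.11.15, numpy 2.4.6, scipy 1.17.1 and pandas 2.3.3 were used.

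The genes named were the 9 members in every gate, the gate genes and marker lists as checks, the 2 largest positive and 2 largest negative of 30 listed transcription factors per gate among those at 20 CPM or more, listed targets (1 is not reported here), and the gene most like each member. Xist, the Y-linked genes and the split by H2-Aa and Lyz2 were looked at after the values were seen. The members and lists were chosen with earlier results of these data known.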

Additional observations from a re-analysis of the deposited data

Results flagged for a closer look

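Gata3 was higher in the Runx3-labelled library in the Il7r and Rora gate, with a log2 ratio of 1.63 (1.35 to 1.97), and lower in the CD4 T gate, with -0.43 (-0.67 to -0.21). It stands out because the 2 gates of the same libraries moved in opposite directions with counting intervals on opposite sides of 0. Lef1 was higher in the CD8 T gate at 1.39 (1.24 to 1.53) and lower in the NK gate at -0.33 (-0.63 to -0.05), for the same reason. With 1 library per group, neither difference between gates was tested.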

How the results depend on the processing

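No paired analysis was possible because each group has 1 library and the titles give no replicate number. Of the 18 member ratios past 2-fold, all 18 stayed past it with no filter on low values and with shared barcodes left out, and Tcf7 in the 3 T gates, Foxp3 in CD4 T cells and Gata3 in the Il7r and Rora gate did so under every alternative that gave a value. Tcf7 ran from 3.31 to 4.07 in CD8 T, 2.58 to 3.49 in CD4 T and 1.55 to 2.43 in other T cells, and Foxp3 in CD4 T cells from 2.13 to 4.39. Lef1 ran from 0.80 to 1.91 in CD8 T, 0.94 to 1.82 in CD4 T and 0.88 to 1.59 in other T cells, and Gata3 in the Il7r and Rora gate from 1.37 to 2.18.

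Counts of members past 2-fold moved by more than 1.5 times as follows. A pseudocount of 10 CPM left 1 lower in CD4 T and 3 higher and 0 lower in the Il7r and Rora gate. Setting the median gene to 0 gave 2 lower in other T, as did keeping all deposited cells. Asking for 2 UMIs of each gate gene gave 1 higher in NK, 1 higher in CD8 T, and 3 higher and 1 lower in the Il7r and Rora gate. Leaving out cells in 2 gates left 0 lower in the Il7r and Rora gate. Leaving out cells with B cell or macrophage genes left 0 lower in CD4 T and 1 lower in the Il7r and Rora gate, as did averaging each cell's own CPM. Thinning cells to 2000 UMIs before gating gave 1 higher and 1 lower in NK, 0 lower in CD4 T and other T, and 3 higher and 0 lower in the Il7r and Rora gate. Among alternatives chosen after the data were seen, leaving out cells with Xist gave 1 higher in NK and 0 lower in the Il7r and Rora gate, and leaving out cells rich in H2-Aa and Lyz2 gave 0 lower in CD4 T and 1 higher in the Il7r and Rora gate. Other moves were by 1 member. There were 2 higher in other T with a pseudocount of 10 CPM, the median gene at 0, 2 UMIs per gate gene, each cell's own CPM averaged or cells with Xist left out, and 2 higher in CD4 T with all deposited cells, thinning or cells with Xist left out. There were 4 higher in the Il7r and Rora gate with the median gene at 0, all deposited cells, averaged CPM or cells with B cell or macrophage genes left out, and 3 higher in CD8 T with no filter on low values or thinning.

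Thinning before gating, which left 7 CD8 T and 25 CD4 T cells in the Runx3-labelled library, turned Tbx21 to 0.62 and Lef1 to -0.57 in the Il7r and Rora gate and Eomes to 0.81 in CD8 T. In that library it also turned the order of Tcf7 in CD8 T over CD4 T (-0.48), Foxp3 in CD4 T over other T (-0.45) and Bcl11b in CD4 T over CD8 T (-0.55). The Tcf7 order was level with 2 UMIs per gate gene (-0.00947). In the Runx3_fl-labelled library, Lef1 in CD4 T over other T turned with 2 UMIs per gate gene (-0.10) and without cells rich in H2-Aa and Lyz2 (-0.11). The cause of these changes was not tested.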
